A study of Mus musculus with 2 samples.

Results

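The forkhead box (Fox) genes are described here in the facial prominence of the mouse embryo, the tissue that builds the face. They are 43 listed genes, chosen by gene symbol, and all 43 were found among the 42462 named genes of the tables. The data are total RNA-seq of RNA over 200 nt from 2 pools of B6NCrl embryos at embryonic day 10.5. Replicate 1 pooled tissue of 69 embryos and replicate 2 tissue of 51, with both sexes mixed, and each library started from 10 ng of RNA. The labels named no treatment, mutation, control or second tissue, so the values describe 1 group with n = 2, and nothing was compared between conditions. The tissue was dissected whole, so fewer cells of a type and less RNA per cell cannot be told apart. The gene totals were 40059176 expected counts for replicate 1 and 39531700 for replicate 2.

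Forkhead proteins are transcription factors that share a winged-helix DNA-binding domain, in which a recognition helix lies in the major groove and reads the bases. Letters after Fox name subfamilies, whose members are closest to one another in that domain. Several have known parts in the face: in mice, loss of Foxf2 or of Foxe1 gives a cleft palate, and in humans FOXC1 is mutated in Axenfeld-Rieger syndrome, which affects the eye and the face. Others act in every dividing or nutrient-sensing cell, such as Foxm1 in mitosis and the Foxo genes downstream of insulin signaling.

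The recognition helix is a part of the domain that the family shares. The coding DNA of a stretch of 30 bases from that helix was found in 42 of the 43 genes in GENCODE M21 transcripts, and in all but Foxr1. It is shown for 3 detected genes of different subfamilies and levels, with the codons of arginine, histidine and asparagine in capitals.
Foxm1: tggaagaactctattCGTCACAACctttct
Foxf1: tggaagaactccgtgCGCCACAACctgtcg
Foxc2: tggcagaacagcatcCGCCACAACctgtca
Over the 42 genes there were 39 distinct DNA sequences and 11 distinct runs of amino acids, of which the most frequent was shared by 15 genes. In 20 genes the 3 codons were CGCCACAAC. Set against Foxc2, the others were alike at between 16 and 29 of the 30 bases. Foxl1, Foxd3 and Foxd4 were the nearest, with 29 bases each. In 14 genes an exon junction cut the stretch, and these were all the listed members of the Foxp, Foxo, Foxj, Foxk and Foxm subfamilies. Those 14 genes held 62.2% of the forkhead TPM in replicate 1 and 60.9% in replicate 2, and the highest of them were Foxp1, Foxm1 and Foxp2. With detection as defined below, 12 of the 14 were detected, and 13 of the other 28 genes with the stretch. The share over named protein coding genes was 58.2%. The junction goes with whole subfamilies, and its part in these levels was not tested.

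TPM, the number of a gene's transcripts per 1000000 transcripts, is a level per length, so levels of different genes can be set side by side. Detection was set at 1 TPM or more in each of the pools. By that measure 25 of the 43 forkhead genes were detected, or 58.1%, against a background of 58.2% of 21474 named protein coding genes, so the share of detected genes was near that of protein coding genes at large. Most forkhead genes were low: the median over the 43 was 2.21 TPM, beside 3.57 TPM over protein coding genes. Among detected genes the medians were 4.61 TPM for forkhead genes and 20.1 TPM for protein coding genes, and 6 forkhead genes lay above the median of detected protein coding genes. All 43 together summed to 402 TPM in replicate 1 and 372 TPM in replicate 2. The 4 highest genes, Foxp1, Foxm1, Foxn3 and Foxp2, made up 59.0% of that sum in replicate 1 and 58.0% in replicate 2.

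**Figure D1:**
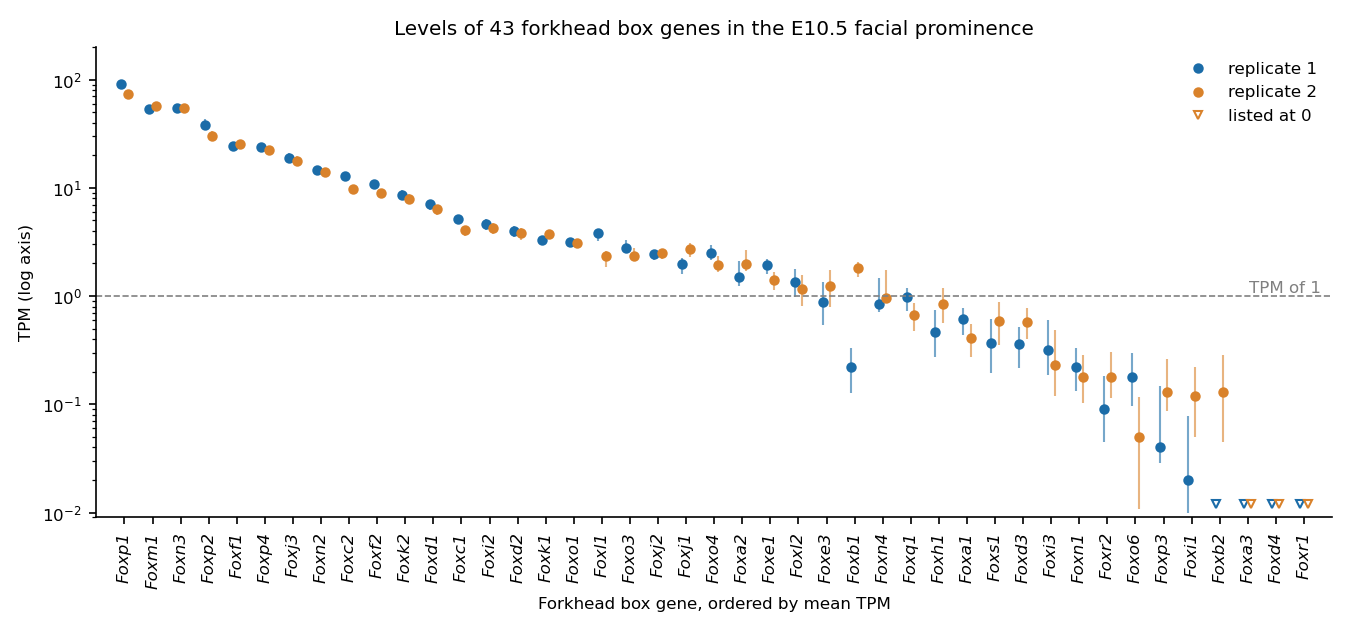
TPM of each of the 43 forkhead genes (horizontal axis, ordered by mean) in replicate 1 and replicate 2 (points, logarithmic vertical axis), with the interval that the authors deposited for each value as a vertical line (its level is not given in the sources used here) and genes listed at 0 as open triangles. Foxp1 leads in both pools, 9 genes have a mean of at least 10 TPM, and Foxb1 is the gene whose 2 points lie farthest apart among those that average 50 counts or more.

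The Foxp genes code for repressors that pair with one another through a leucine zipper, and 3 of the 4 were among the 6 highest forkhead genes. Foxp1 (ENSMUSG00000030067, GRCm38 chromosome 6, 98925338 to 99522721, minus strand) was the highest of all at 91.0 TPM in replicate 1 and 74.1 TPM in replicate 2, a mean of 82.5 ± 11.9 TPM (SD, n = 2 pools). Foxp2, known from human speech and from vocal behaviour in mice, had 38.4 TPM in replicate 1 and 29.8 TPM in replicate 2. Foxp4 had 23.7 TPM in replicate 1 and 22.4 TPM in replicate 2. The 3 genes kept the order Foxp1, Foxp2, Foxp4 in each pool, and their values did not overlap. Foxp3, the regulator of regulatory T cells, had 0.04 TPM in replicate 1 and 0.13 TPM in replicate 2. The T cell markers Cd3e and Il2ra had no counts in either pool, Cd4 had 0.01 TPM in replicate 1 and none in replicate 2, and Ikzf4, which other tissues express too, had 2.94 TPM in replicate 1 and 2.37 TPM in replicate 2. The Foxp genes together came to 140 ± 18.8 TPM (SD, n = 2), or 36.1% of the forkhead sum averaged over the pools.

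To ask whether 2 genes differed beyond the replicate spread of genes of like level, their log2(TPM + 0.1) difference was given a 95% interval. The spread came from the 200 genes nearest in level to each gene, and not from the pair itself. Genes were called apart when that interval left out 0 and both pools had the same sign. This pseudocount understates folds of genes near 0. Within subfamilies 17 of 21 gene pairs were apart. The share over pairs of other genes was not computed, so this count describes the listed pairs and not a trait of forkhead genes. Foxp1 stood 2.42-fold over Foxp2 (interval 2.08 to 2.83) and 3.55-fold over Foxp4 (3.15 to 3.99), and Foxp4 was 0.68-fold of Foxp2 (0.58 to 0.81). Along the order of all 43 levels, 7 of the 42 neighbouring pairs were apart, all of them among detected genes: Foxp1 over Foxm1, Foxn3 over Foxp2, Foxp2 over Foxf1, Foxp4 over Foxj3, Foxj3 over Foxn2, Foxn2 over Foxc2 and Foxd1 over Foxc1. With either pool left out, 3 neighbouring pairs were apart. Every interval is wider in that setting, as its standard error rests on 1 value a gene. Ranks between other neighbours, such as Foxm1 and Foxn3 or Foxf1 and Foxp4, were not separated by the spread. The spread used for Foxp1 was 0.068 in log2, while its own pools had a log2 ratio of -0.32 (replicate 2 over replicate 1). The interval of Foxp1 over Foxm1 may thus be too narrow, though both pools had the same sign.

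**Figure D2:**
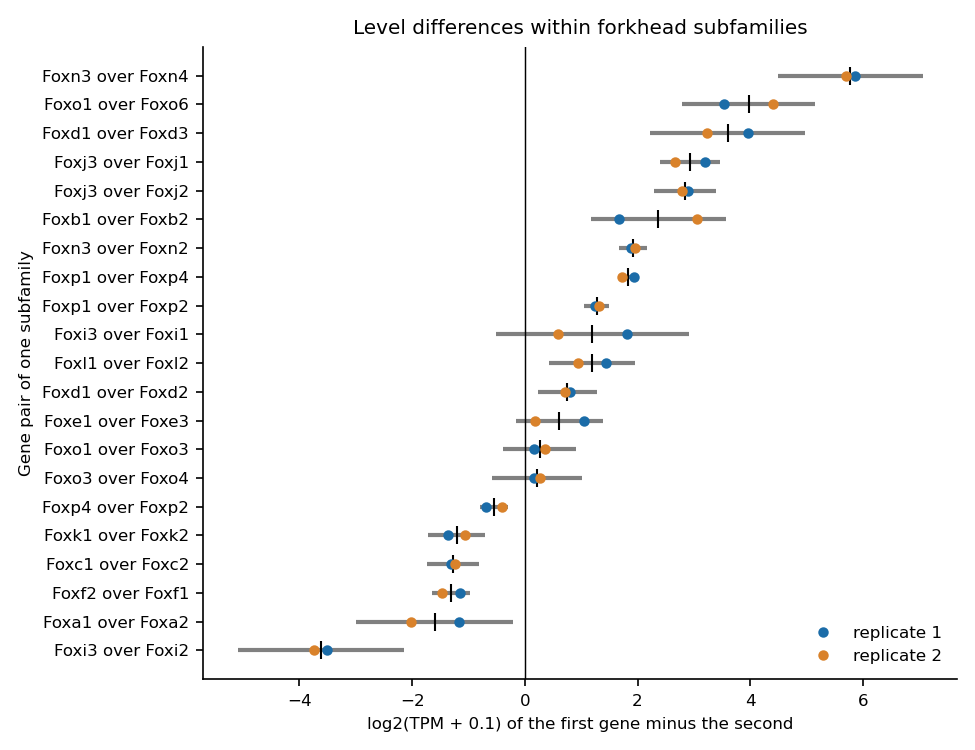
Difference in log2(TPM + 0.1) between the first and the second gene of 21 pairs of one subfamily (horizontal axis), with replicate 1 and replicate 2 as points, their mean as a tick and the 95% interval from the pooled replicate spread as a grey line. The interval leaves out 0 in 17 pairs, and the pairs whose interval holds 0 are Foxi3 over Foxi1, Foxe1 over Foxe3, Foxo1 over Foxo3 and Foxo3 over Foxo4.

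Foxm1, the activator of genes for mitosis, was the second forkhead gene by mean level, not apart from Foxn3. It had 53.3 TPM in replicate 1 and 57.6 TPM in replicate 2. All 12 listed targets of FOXM1 in mitosis were detected, with a median of 183 TPM, beside 3.57 TPM over protein coding genes. The 3 highest were Ccnb1, which codes for cyclin B1, at 349 ± 2.94 TPM, Birc5, which codes for survivin, at 345 ± 8.62 TPM, and Cdc20, an activator of the anaphase-promoting complex, at 342 ± 3.35 TPM (SD, n = 2 each). The lowest was the phosphatase gene Cdc25b at 43.1 ± 1.23 TPM. These transcripts are known to be high wherever cells divide, and their levels do not measure FOXM1 activity.

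Foxn genes split into a high and a low pair. Foxn3, known as a checkpoint suppressor, had 54.6 TPM in replicate 1 and 54.2 TPM in replicate 2. Foxn2 had 14.6 TPM in replicate 1 and 13.9 TPM in replicate 2. Foxn3 was 3.80-fold over Foxn2 (3.20 to 4.50). Foxn4, known from the retina and spinal cord, stayed under 1 TPM, with 0.84 in replicate 1 and 0.95 in replicate 2, and so did Foxn1, the gene of the nude mouse that acts in thymus epithelium, with 0.22 in replicate 1 and 0.18 in replicate 2.

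Foxj1 drives the genes of motile cilia, while Foxj2 and Foxj3 are broadly expressed. Foxj3 had 18.9 TPM in replicate 1 and 17.9 TPM in replicate 2 and was 7.17-fold over Foxj2 (4.90 to 10.5) and 7.63-fold over Foxj1 (5.30 to 11.0). Foxj2 had 2.45 TPM in replicate 1 and 2.50 TPM in replicate 2, and Foxj1 1.96 TPM in replicate 1 and 2.74 TPM in replicate 2. Only 6 of 17 listed genes of the motile cilia program were detected, with a median of 0.18 TPM. The 3 highest were Ccdc40, needed to assemble the axoneme, at 19.4 ± 2.43 TPM, Rfx3, a ciliary transcription factor, at 15.7 ± 0.35 TPM, and Tekt1, a tektin, at 5.66 ± 0.56 TPM (SD, n = 2 each). The lowest was the axonemal dynein gene Dnah5 at 0.025 TPM, and the multiciliation genes Mcidas and Gmnc had 0.24 and 0.065 TPM on average.

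The Foxk proteins bind the SIN3 and BAP1 complexes. Foxk1 had 3.26 TPM in replicate 1 and 3.74 TPM in replicate 2, against 8.55 TPM in replicate 1 and 7.88 TPM in replicate 2 for Foxk2. Foxk1 was 0.43-fold of Foxk2 (0.30 to 0.61). Of 14 listed partners of FOXP and FOXK proteins, 12 were detected, with a median of 69.8 TPM. The corepressor gene Ctbp1 at 294 ± 2.81 TPM and the deacetylase genes Hdac2 at 270.2 ± 13.7 TPM and Hdac1 at 255 ± 1.14 TPM (SD, n = 2 each) were the highest. The lowest was Tbr1, a partner of FOXP2 in cortical neurons, at 0.18 TPM.

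The Foxo proteins leave the nucleus when insulin signaling activates AKT. Foxo1 had 3.16 TPM in replicate 1 and 3.06 TPM in replicate 2. Foxo3 had 2.80 TPM in replicate 1 and 2.36 TPM in replicate 2, and Foxo4 had 2.48 TPM in replicate 1 and 1.94 TPM in replicate 2. These 3 genes lay close together, and neither Foxo1 over Foxo3 (1.20-fold, 0.77 to 1.88) nor Foxo3 over Foxo4 (1.16-fold, 0.67 to 2.03) was apart. Foxo6 had 12 reads in replicate 1 and 3 in replicate 2, which is 0.18 and 0.05 TPM. Of 24 listed genes of FOXO signaling and its targets, 22 were detected, with a median of 21.6 TPM. The highest were Ywhaz, which codes for a 14-3-3 protein, at 790.5 ± 19.1 TPM, Skp2, a ubiquitin ligase subunit, at 108 ± 1.46 TPM, and Akt2, a FOXO kinase, at 82.3 ± 3.74 TPM (SD, n = 2 each), and the lowest was the repressor gene Bcl6 at 0.17 TPM.

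Foxf and Foxc genes are known from mesenchyme, and in both subfamilies the 2 paralogs differed in level. Foxf2 had 10.8 TPM in replicate 1 and 9.03 TPM in replicate 2, against 24.3 TPM in replicate 1 and 25.1 TPM in replicate 2 for Foxf1, which is needed in lung and gut mesenchyme of the mouse. Foxf2 was 0.40-fold of Foxf1 (0.32 to 0.51). Foxc1 had 5.13 TPM in replicate 1 and 4.09 TPM in replicate 2, against 12.8 TPM in replicate 1 and 9.81 TPM in replicate 2 for Foxc2, and was 0.41-fold of it (0.30 to 0.57). The paralogs did not overlap in either subfamily.

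These 4 genes sit in 2 clusters with 1 other forkhead gene each. On chromosome 8, Foxf1, Foxc2 and Foxl1 start within 43.6 kb, with 31.8 kb between the starts of Foxf1 and Foxc2 and 11.8 kb between those of Foxc2 and Foxl1. On chromosome 13, Foxq1, Foxf2 and Foxc1 start within 250.5 kb, with 69.7 kb from Foxq1 to Foxf2 and 181 kb from Foxf2 to Foxc1. In both clusters the Foxf gene was highest, the Foxc gene came next and the other gene was lowest, in each pool. Foxf1 was 2.19-fold over Foxc2 (1.77 to 2.72) and Foxc2 was 3.66-fold over Foxl1 (2.51 to 5.34). On chromosome 13, Foxf2 was 2.13-fold over Foxc1 (1.53 to 2.98) and Foxc1 was 5.16-fold over Foxq1 (2.55 to 10.4). Foxl1, a gene of gut mesenchyme, had 3.85 TPM in replicate 1 and 2.32 TPM in replicate 2, and Foxq1, the gene of the satin coat mutant, had 0.97 TPM in replicate 1 and 0.67 TPM in replicate 2. On chromosome 8 the levels followed the order of the genes along the chromosome, while on chromosome 13 the highest gene, Foxf2, lies between the other ones.

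**Figure D3:**
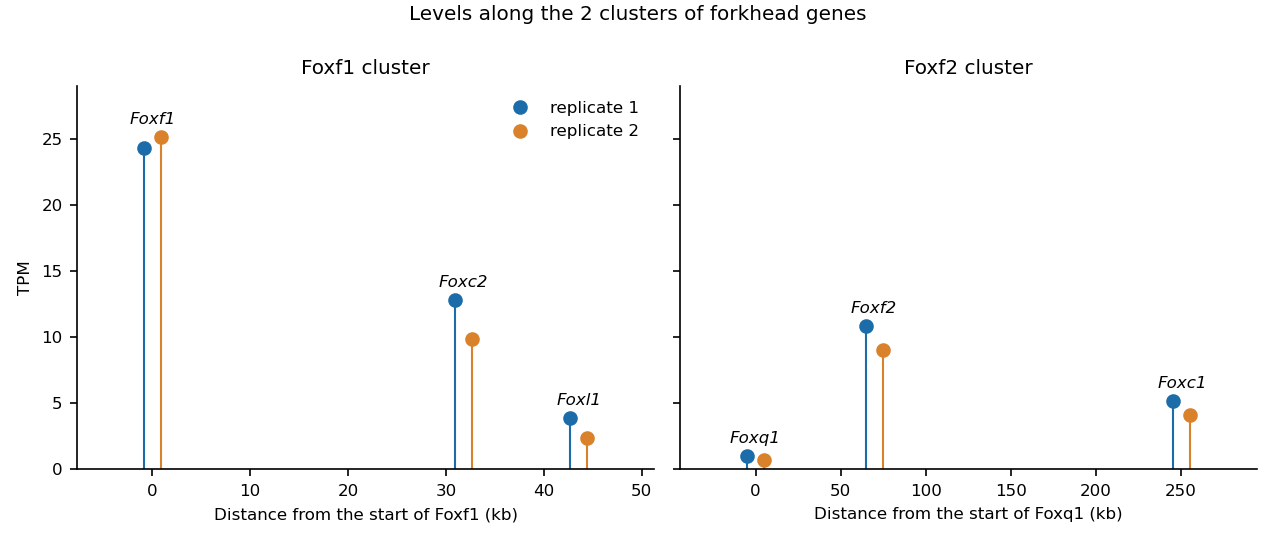
TPM (vertical axis) of the forkhead genes of the chromosome 8 cluster (left) and of the chromosome 13 cluster (right) in replicate 1 and replicate 2, against the distance of each start from the first gene of the cluster in kb (horizontal axis; the 2 points of a gene are set slightly apart for sight). The Foxf gene is the highest in each cluster, with means of 24.7 TPM for Foxf1 and 9.93 TPM for Foxf2, followed by Foxc2 and by Foxc1.

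Hedgehog signaling is a known input to Foxf and other forkhead genes of the mouse face and gut. Of 12 listed genes of that pathway 11 were detected, with a median of 10.6 TPM. The coreceptor gene Gas1 at 65.7 ± 0.23 TPM, the signal transducer gene Smo at 46.6 ± 1.63 TPM and the effector gene Gli3 at 29.0 ± 0.69 TPM (SD, n = 2 each) were highest. The lowest was the ligand gene Ihh, with 0.10 TPM in replicate 2 and none in replicate 1. The ligand gene Shh had 2.67 TPM in replicate 1 and 1.83 TPM in replicate 2.

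Foxd genes ran from a mean of 6.70 TPM to no counts. Foxd1, known from kidney stroma and the optic nerve, had 7.09 TPM in replicate 1 and 6.31 TPM in replicate 2, and Foxd2 had 4.03 TPM in replicate 1 and 3.82 TPM in replicate 2. Foxd1 was 1.69-fold over Foxd2 (1.18 to 2.42), a call that was lost without replicate 1 (log2 difference 0.71). Foxd3, which marks neural crest cells as they form, had 21 reads in replicate 1 and 34 in replicate 2, or 0.36 and 0.58 TPM, and Foxd1 was 12.1-fold over it (4.67 to 31.5). The neural crest gene Foxd3 was thus not detected, while the 7 listed markers of facial mesenchyme were all detected, with Msx1 at 292 ± 15.1 TPM and Twist1, the lowest, at 27.4 ± 4.12 TPM (SD, n = 2 each). Foxd4 had no count in either pool, and 3 counts would have given 0.050 TPM in replicate 1 and 0.051 TPM in replicate 2, which is the highest level that a count of 0 allows, for counting error only.

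The Foxi and Foxe genes, several of them known from surface ectoderm and placodes, and Foxl2 were low but present in part. Foxi2 was the highest of them, with 4.68 TPM in replicate 1 and 4.29 TPM in replicate 2. Foxi3, known from ear, tooth and hair placodes, had 0.32 TPM in replicate 1 and 0.23 TPM in replicate 2, and was 0.081-fold of Foxi2 (0.029 to 0.23). Foxi1, of the inner ear and kidney, had 1 read in replicate 1 and 7 in replicate 2. Foxi2 was thus the only Foxi gene detected. Foxe1, of thyroid and palate, had 1.92 TPM in replicate 1 and 1.42 TPM in replicate 2, and Foxe3, of the lens, had 0.88 TPM in replicate 1 and 1.24 TPM in replicate 2. Their values did not overlap, but the pair was not apart (Foxe1 over Foxe3 1.53-fold, 0.89 to 2.62). Foxl2, of eyelid and ovary, had 1.35 TPM in replicate 1 and 1.16 TPM in replicate 2, and Foxl1 was 2.29-fold over it (1.35 to 3.87), a call lost without replicate 1 (log2 difference 0.94). The 6 listed markers of facial ectoderm were all detected, between 84.7 ± 3.08 TPM for Krt18 and 19.5 ± 1.20 TPM for Cdh1 (SD, n = 2 each). Of markers of other cell types, all 5 of endothelium, all 3 of macrophages, all 4 of neurons and all 4 of primitive erythroid cells were detected, beside 1 of 3 of liver and none of 3 of germ cells.

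Foxa genes act in endoderm and in the floor plate. Foxa1 had 0.61 TPM in replicate 1 and 0.41 TPM in replicate 2, against 1.50 TPM in replicate 1 and 1.98 TPM in replicate 2 for Foxa2, and was 0.33-fold of it (0.13 to 0.87), a call lost without replicate 2 (log2 difference -1.17). Foxa3 had no count in either pool, where 3 counts would have given 0.060 TPM in replicate 1 and 0.061 TPM in replicate 2. Of the liver markers, Alb had no counts in either pool, Afp had 0.11 TPM in replicate 1 and 1.09 TPM in replicate 2, and Ttr had 4.72 TPM in replicate 1 and 5.08 TPM in replicate 2. Foxh1 partners SMAD2 in Nodal signaling and had 15 reads in replicate 1 and 27 in replicate 2. Of 13 listed genes of that pathway 7 were detected, with a median of 4.92 TPM. Highest were the receptor gene Acvr2b at 53.8 ± 6.87 TPM and the signal transducer gene Smad2 at 40.9 ± 0.59 TPM (SD, n = 2 each), both of which also act in activin signaling. The ligand gene Nodal averaged 0.085 TPM, and its coreceptor gene Tdgf1 was the lowest at 0.010 TPM.

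The remaining genes had few reads. Foxs1 had 12 reads in replicate 1 and 19 in replicate 2, and Foxr2 7 reads in replicate 1 and 15 in replicate 2. Foxr1 had no count in either pool, with a limit of 0.072 TPM in replicate 1 and 0.073 TPM in replicate 2. Foxb2 had no count in replicate 1 and 5 in replicate 2. In all, 16 forkhead genes were under 1 TPM in both pools and Foxe3 and Foxb1 were under it in replicate 1 alone. Of the 43 genes, 30 have several exons and 13 a single one. Of the genes with several exons 18 were detected and of the single-exon genes 7, shares near the background of 58.2% in both. Genes with several exons held 90.4% of the forkhead TPM in replicate 1 and 91.4% in replicate 2. The highest single-exon gene was Foxc2.

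Transcripts within a gene were described for the 12 forkhead genes with at least 2 annotated transcripts and a mean of at least 1 TPM. The transcript with the largest share of the gene's TPM was the same in both pools in 11 of these 12 genes (91.7%), near the background of 91% of 9807 genes. The exception was Foxa2, in which Foxa2-202 took 91.5% in replicate 1 and 45.2% in replicate 2, and Foxa2-201 took none in replicate 1 and 45.3% in replicate 2, out of 74 reads in replicate 1 and 98 in replicate 2. Leading shares were high for Foxk2-201 (90.1 ± 0.64%), Foxn2-201 (85.2 ± 0.87%), Foxm1-201 (72.4 ± 2.57%) and Foxj3-202 (55.8 ± 2.42%). They were under 50% for Foxn3-201 (48.8 ± 0.97%), Foxp4-204 (48.3 ± 0.17%), Foxp1-225 (48.2 ± 4.89%) and Foxp2-207 (26.2 ± 2.20%; SD, n = 2 each). Foxp1-225 took 51.7% in replicate 1 and 44.8% in replicate 2, and the leads of the other 3 genes stayed under 50% in each pool.

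A share of TPM gives a short transcript more weight than its reads have, and shares by expected counts differed from those by TPM in several genes. By counts, Foxn3-201 held 68.8% of Foxn3 in replicate 1 and 70.7% in replicate 2, and Foxp4-204 held 64.3% of Foxp4 in replicate 1 and 62.3% in replicate 2. By expected counts the leading transcript of Foxp1 was Foxp1-204, of 7177 bases, with 44.3% in replicate 1 and 46.5% in replicate 2, and Foxp1-225, of 1848 bases, took 33.2% in replicate 1 and 29.9% in replicate 2. In 10 of the 12 genes the same transcript led by TPM and by counts in both pools, Foxp1 and Foxa2 being the others. In Foxa2 the leader by TPM and by counts was the same within each pool and changed between the pools. Transcripts annotated with a retained intron, which are mostly short here, held 25.7 ± 1.95% of the TPM of Foxm1 and 4.11% of its counts on average. They held 19.5 ± 2.42% of the TPM of Foxp4 and 3.28% of its counts. In Foxp2 they held 19.2 ± 0.72% of the TPM and 11.4% of the counts.

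**Figure D4:**
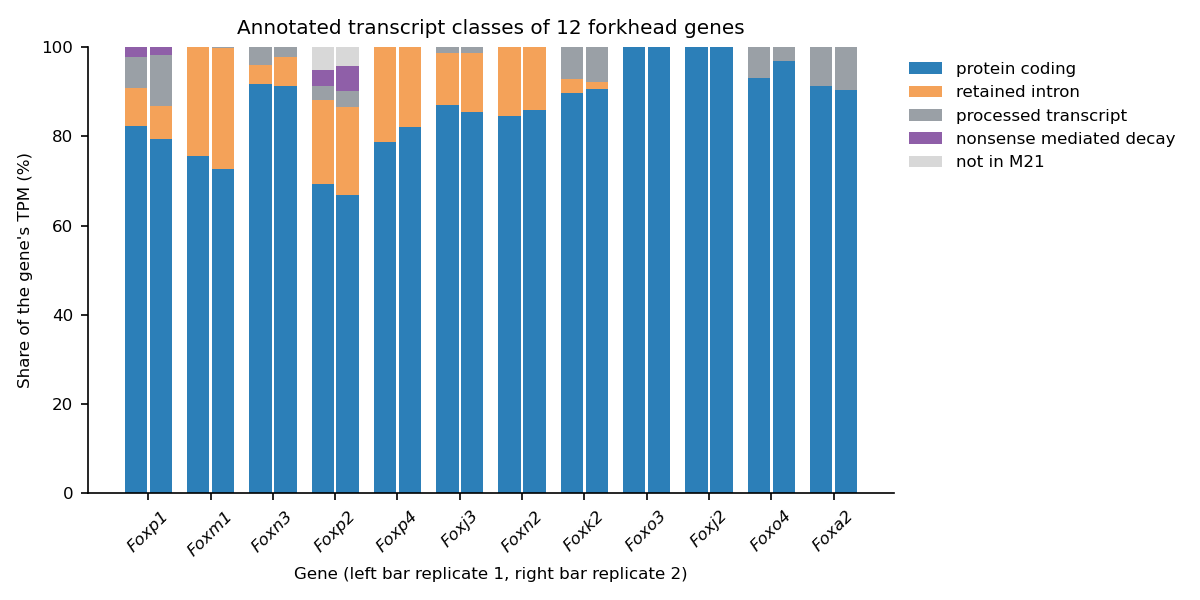
Share of each gene's TPM (vertical axis, percent) held by each annotated class of transcript in 12 forkhead genes, with replicate 1 as the left and replicate 2 as the right bar of a gene. Protein coding transcripts hold most of the TPM in each gene, and retained-intron transcripts reach their highest share in Foxm1, at 25.7% averaged over the pools.

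Foxp1 has several annotated starts, and their upstream DNA differs in content of CpG, the dinucleotide CG that is dense at many promoters of broadly expressed genes. RefSeq (GRCm38.p6) gave 3 Foxp1 promoters that matched starts of the measured transcripts within 100 bases, and the 250 bases upstream of each are shown with every CG in capitals, on the minus strand, from the outermost start inwards.
chr6:99520994-99521243: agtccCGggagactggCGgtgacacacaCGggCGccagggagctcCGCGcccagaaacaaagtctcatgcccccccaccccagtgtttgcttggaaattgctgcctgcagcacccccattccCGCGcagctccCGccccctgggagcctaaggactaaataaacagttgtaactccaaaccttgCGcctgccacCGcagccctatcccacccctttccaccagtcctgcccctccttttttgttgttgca
chr6:99266516-99266765: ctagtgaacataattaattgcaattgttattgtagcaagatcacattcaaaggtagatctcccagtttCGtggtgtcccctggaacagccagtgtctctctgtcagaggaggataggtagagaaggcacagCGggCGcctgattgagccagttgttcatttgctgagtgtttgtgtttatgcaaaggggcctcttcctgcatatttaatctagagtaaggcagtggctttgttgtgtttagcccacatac
chr6:99028299-99028548: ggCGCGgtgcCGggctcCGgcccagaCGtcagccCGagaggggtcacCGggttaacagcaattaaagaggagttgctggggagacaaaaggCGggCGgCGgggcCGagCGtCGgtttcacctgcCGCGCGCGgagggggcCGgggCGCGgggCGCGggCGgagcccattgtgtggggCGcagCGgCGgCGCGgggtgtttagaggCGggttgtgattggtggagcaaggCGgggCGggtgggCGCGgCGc
The outermost window holds 11 CG, the middle one 3 and the innermost 34. Of 19931 windows of the same length at protein coding genes, 49.4% hold at least 11, 79.1% at least 3 and 4.64% at least 34; CG reads the same on both strands. Transcripts from the innermost start, Foxp1-225 among them, held 53.7 ± 1.77% of the TPM of Foxp1 (SD, n = 2), or 50 TPM in replicate 1 and 38.9 TPM in replicate 2. By expected counts they held 34.5% in replicate 1 and 34.3% in replicate 2. The middle start held 4.99 ± 0.88% of the TPM, and by counts 9.71% in replicate 1 and 6.57% in replicate 2. The outermost held 0.52 ± 0.085% of the TPM, and by counts 0.77% in replicate 1 and 0.64% in replicate 2. Foxp1-204 starts elsewhere, at 99435345, where the RefSeq table gave no window.

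Promoter windows were at hand for 28 of the 43 genes, and not all lay at a start in use. Transcripts from the only Foxn3 window held 0.43% of its TPM on average. The windows of Foxj2, Foxl2, Foxr1 and Foxd4 matched no start of a measured transcript. Foxp1, Foxa2 and Foxp3 had several windows, so taking the highest ratio could only raise theirs. The ratio of observed to expected CpG, taken from the window with the highest ratio of each gene, had a median of 0.88 over the 15 detected forkhead genes and of 0.68 over the 13 that were not detected. Their ranges overlapped, from 0.15 to 1.28 in detected genes and from 0.18 to 0.89 in the others. Over protein coding genes the medians were 0.77 for detected and 0.22 for other genes. Undetected forkhead genes such as Foxa1 (0.89) and Foxd3 (0.85) thus had upstream DNA as rich in CpG as that of detected ones, and Foxi2 was detected with a ratio of 0.15.

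Other annotated genes, coding or noncoding, overlapped, or started within 5 kb of the start of, 23 of the 43 genes. The share over genes at large was not computed, so this count is not read as a trait of forkhead genes. There were 36 such neighbours, of which 14 had a mean of at least 1 TPM. Of the 26 noncoding ones, 6 reached that level. Foxd2os, on the opposite strand with its start 384 bases upstream of Foxd2, had 21.2 TPM in replicate 1 and 19.3 TPM in replicate 2, 5.16 times the mean TPM of Foxd2. Fendrr, a long noncoding RNA known from lateral mesoderm of the mouse, starts 1276 bases upstream of Foxf1 and had 4.60 TPM in replicate 1 and 4.98 TPM in replicate 2, below Foxf1. 1700018A04Rik starts 24 bases upstream of Foxf2 and had 3.61 TPM in replicate 1 and 3.42 TPM in replicate 2. The neighbour was thus above its forkhead gene at Foxd2 and below it at Foxf1 and Foxf2. Gm12446, antisense to Foxe1, had 3.47 TPM in replicate 1 and 3.44 TPM in replicate 2, 2.07 times Foxe1, and reads of overlapping genes such as these cannot be told apart without the strand. Gm36995, which overlaps Foxp3, averaged 1.28 TPM, and the microRNA entry Gm22328 inside Foxp1 rested on 1 read.

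Among protein coding neighbours, Rhno1, a DNA damage gene that starts 56 bases from Foxm1 on the other strand, had 161 TPM in replicate 1 and 160.2 TPM in replicate 2, 2.90 times Foxm1. Ppp1r16a beside Foxh1 averaged 56.7 TPM, Sympk beside Foxa3 37.5 TPM and Ccdc22 and Ppp1r3f, which overlap Foxp3, 30.5 and 1.54 TPM. These forkhead genes were thus low or at 0 next to expressed genes, Foxm1 excepted. Frg2f1, which overlaps Foxj3 in part, averaged 1.74 TPM and Gm20696 across Foxp1 2.35 TPM. Gm20388, annotated as 1 protein coding gene that spans Foxf1, Foxc2 and Foxl1, had 1.51 TPM and 154 counts in replicate 2, against 4.33 TPM and 443 counts in replicate 1.

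Differences between the pools were taken from expected counts scaled by TMM, as the ratio of replicate 2 over replicate 1, with an exact binomial 95% interval that covers counting error only. With 1 library a side no test applies. Of the 27 forkhead genes that averaged 50 counts or more, only Foxb1 was at least 2-fold apart, beside a background of 1.24% of 14035 genes. Foxb1 (ENSMUSG00000059246, GRCm38 chromosome 9, 69757710 to 69760940, minus strand), which acts in the neural tube and hypothalamus, had 138 counts and 1.82 TPM in replicate 2, against 16.7 counts and 0.22 TPM in replicate 1, a ratio of 7.56 (5.02 to 14.7).

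Of the 7 listed markers of neural tube and hindbrain, Hoxb1 and Hoxb2 were at least 2-fold apart between the pools, as Foxb1 was. All 7 had a ratio above 1, their summed level was 174 TPM in replicate 2 and 140.4 TPM in replicate 1, and none was at 0. Hoxb1, which is known to mark the fourth rhombomere of the hindbrain, had 5.91 TPM in replicate 2 and 1.03 TPM in replicate 1, and Hoxb2 had 14.2 TPM in replicate 2 and 4.92 TPM in replicate 1. Hoxa2 had 14.6 TPM in replicate 2 and 7.73 TPM in replicate 1, and Pax6 18.6 TPM in replicate 2 and 11.0 TPM in replicate 1. Sox2, Sox1 and Fabp7 were within 1.32-fold between the pools. The 6 listed markers of pharyngeal endoderm summed to 22.9 TPM in replicate 2 and 30.8 TPM in replicate 1, but did not move alike. Nkx2-1 had 3.66 TPM in replicate 2 and 7.62 TPM in replicate 1, and Pax9 had 5.27 and 8.35 TPM. Shh had 1.83 TPM in replicate 2 and 2.67 TPM in replicate 1, and Nkx2-5 had 0.40 and 0.64 TPM. Sox17 and Hhex were level, with ratios of replicate 2 over replicate 1 of 1.06 and 1.05. Whether the genes of these 2 lists mark only those tissues in the facial prominence was not tested. The part of these cell types in the level of Foxb1 was not tested either.

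Differences beyond counting error were about as frequent among forkhead genes as among genes at large. The interval left out 1 in 11 of the 27 genes (40.7%), beside 39.5% of the 14035 genes. That share depends on how many counts a gene has and does not measure the size of the differences. By size, the median absolute log2 ratio was 0.23 over the 27 forkhead genes and 0.094 over the 14035 genes, which were not matched for counts. Of these 11, 4 were higher in replicate 2 and 7 in replicate 1. Those higher in replicate 2 were Foxb1, Foxj1 (1.42-fold, 1.13 to 1.80), Foxk1 (1.17-fold, 1.05 to 1.31) and Foxm1 (1.06-fold, 1.02 to 1.11). The ratio was lowest for Foxl1, at 0.62 (0.50 to 0.75), and the others below 1 were Foxe1 (0.76), Foxp2 (0.79), Foxc2 (0.78), Foxp1 (0.80), Foxc1 (0.81) and Foxf2 (0.85). Foxc2 and Foxl1 of the chromosome 8 cluster were thus lower in replicate 2, while the interval of Foxf1 held 1 (1.06, 0.98 to 1.13). Gm20388, which spans the 3 genes, was 2.78-fold higher in replicate 1, and its part in their counts was not tested.

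**Figure D5:**
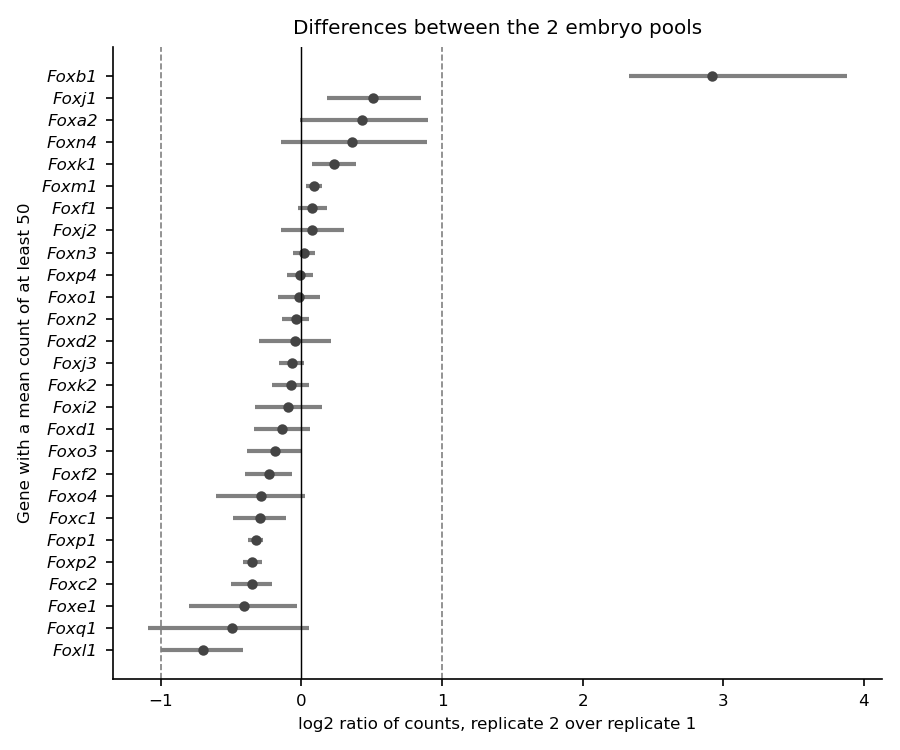
Log2 ratio of TMM-scaled counts, replicate 2 over replicate 1 (horizontal axis), for the 27 forkhead genes that average 50 counts or more, with the exact binomial 95% interval as a grey line and dashed lines at 2-fold either way. Foxb1 is the only gene past a dashed line, and the intervals of 11 genes leave out 0.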

How the data were processed

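Per the file headers and notes, the authors placed reads on mm10 and quantified GENCODE M4; the aligner, quantifier and strand setting are not given in the sources used here. Expected counts and posterior mean counts were deposited per gene and transcript, not normalized. TPM was deposited by the authors, scaled over all features with spike-in controls, as was the percent of each transcript in its gene. FPKM, also deposited by the authors, was not used. The count total of each library is given above.

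Symbols, coordinates and transcript classes came from GENCODE M21 (GRCm38) by identifier without version; 42462 of 43346 genes were named. The members, pairs and lists were chosen with earlier results of these data known. Spread between genes came from log2(TPM + 0.1) pooled over 200 genes nearest in level, with intervals of 1.96 standard errors; 2 values against 2 cannot reach an exact permutation p below 0.33, so none was computed. Expected counts were rounded to whole numbers and scaled with TMM (edgeR 4.0.16), with a prior count of 2; a 2-fold ratio at a mean of 50 counts or more was called. Counts were whole in both pools for 36 of 43 genes and split for 7. Foxp1, Foxm1, Foxo1, Foxj2, Foxb1, Foxq1 and Foxp3 were the split ones. A chi-square of 8.41 per degree of freedom over 18934 genes showed 2 distinct libraries. The labels call them biological replicates. Named genes were all members, the 3 highest and the lowest of each list, neighbours with a mean of at least 1 TPM or 2-fold apart, and leading transcripts at a gene mean of at least 5 TPM; Foxa2 and further transcripts and list genes were added after their values were seen. The ratio between the pools, its interval and the pooled spread were tested on simulated data. Those counts held counting error only, which is less spread than the 2 libraries had. The calls of gene pairs and neighbours were not tested in that way. The list genes Dnai1 and Gdf1 had no match. Protein identity was not computed. The result of 1 list gene that this rule took, and some helix sequences, are not reported here.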

Additional observations from a re-analysis of the deposited data

How the results depend on the processing

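Results for 2 pools depend on both, and 1 group allows no contrast. Detected forkhead genes numbered between 20 and 34 over the TPM thresholds of 0.5 and 2, posterior mean TPM, TPM over Ensembl genes alone, a count of at least 10, and either pool alone (25 and 27). The median forkhead TPM, 2.21, became 2.27 with posterior mean TPM, 2.41 over Ensembl genes alone and 1.96 to 1.98 with 1 pool. Pairs apart numbered 11 of 14 when both genes needed a mean TPM of at least 1, against 17 of 21, and 15 with either pool left out. Neighbours apart in the order of levels fell to 3 with either pool left out, against 7; these alternatives were chosen after seeing the data. Without a filter on low counts, 5 genes were 2-fold apart between the pools, against 1: Foxb1 and, with under 10 reads on average, Foxo6, Foxp3, Foxi1 and Foxb2. Foxb1 alone was called under DESeq2 size factors, library size alone, posterior mean counts, a prior count of 0.5 and a mean count of at least 10. Foxd1 over Foxd2 and Foxl1 over Foxl2 were not apart without replicate 1, nor Foxa1 over Foxa2 and Foxb1 over Foxb2 without replicate 2, and Foxi3 over Foxi1 was apart with posterior mean TPM; no pair reversed. Leaving out a pool widens every interval by construction, since its standard error then rests on 1 value a gene and not on 2. The order of neighbours was also set anew by the pool that was left. Calls lost in this way do not by themselves show unstable levels. Other causes were not tested. No paired analysis was possible because there is 1 group.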
